A study of Mus musculus with 8 samples.

Results

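Resting basal-like cells of mouse mammary tumor organoids numbered 254 among 1100 single cells. They were chosen by a rule on measured values. A cell was basal-like if its log2 ratio R of luminal keratin UMIs (Krt8 and Krt18, with 1 added) to basal keratin UMIs (Krt5 and Krt14, with 1 added) was at or under the 0.75 quantile of all cells. It was resting if its share C of 12 cycle genes, in UMIs per 10000, was among the lowest 1 in 3 of all cells. A UMI (unique molecular identifier) counts 1 captured RNA molecule. The resting basal-like cells numbered 54 of 369 kept cells (14.6%, 95% exact binomial interval 11.2 to 18.7%) in the control library GR17. They numbered 112 of 369 (30.4%, 25.7 to 35.3%) in the SOX4KO library GR18 and 88 of 362 (24.3%, 19.98 to 29.1%) in the SOX4KO library GR19. These intervals, and the intervals of CPM (UMIs per 1000000) below, cover counting error only. With 1 control library no test between control and SOX4KO cells could be made, so the differences between these cells are differences between libraries.

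The organoids came from MMTV-PyMT; MMTV-Cre; Ecadherin-mCFP mice, in which the MMTV promoter drives the polyoma middle T oncogene and Cre in mammary epithelium. All groups, controls included, carried these alleles, and all were grown for 4 days after splitting in medium with B27 and FGF2 at 12.5 ng/mL. The SOX4KO lines were made with CRISPR/Cas9, each line is a clone, and the study chose lines with a bi-allelic indel. Bulk RNA of 2 control lines (WT1 and WT3) and 3 SOX4KO lines (H7, M4 and H4) was sequenced too, and the labels do not tie these lines to the single-cell libraries. Sox4 transcripts were still read in every sample, as an indel need not remove them. In the resting basal-like cells Sox4 stood at 186 CPM in the control library, 96.5 in GR18 and 121 in GR19. In bulk it stood at 295 and 374 CPM in the control lines and at 199, 179 and 299 in H7, M4 and H4 (adjusted p = 0.277, edgeR with Benjamini-Hochberg adjustment), so that the lines overlapped.

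Basal cells are the outer layer of the mammary epithelium. They rest on the basement membrane, depend on the transcription factor p63 and make Krt5 and Krt14. In the normal gland they are contractile myoepithelial cells, and tumor cells can keep the basal keratins without the contractile proteins. Cells that stop cycling in growing tissue may do so for many reasons, among them differentiation, crowding, or a shortage of oxygen and nutrients.

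The members were spread over the whole basal range of the keratin ratio and reached down to cells with no cycle-gene UMI. The median R was −1.93 in the control library, −2.58 in GR18 and −1.42 in GR19. The median C was 5.68, 5.50 and 4.70. There were 8 members with a C of 0, of which 2 came from the control library. The thresholds do not lie at a gap. The highest R of a member was 0.862 and the lowest of a resting cell left out was 0.874, against a threshold of 0.865. The highest C of a member was 12.4 and the lowest of a basal-like cell left out was 12.6, against a threshold of 12.5. There were 24 members within 1 UMI per 10000 below the C threshold and 22 within 0.5 below the R threshold. Luminal keratins outnumbered basal keratins in 41 members, and every member held a Krt5 or Krt14 UMI.

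**Figure D1:**
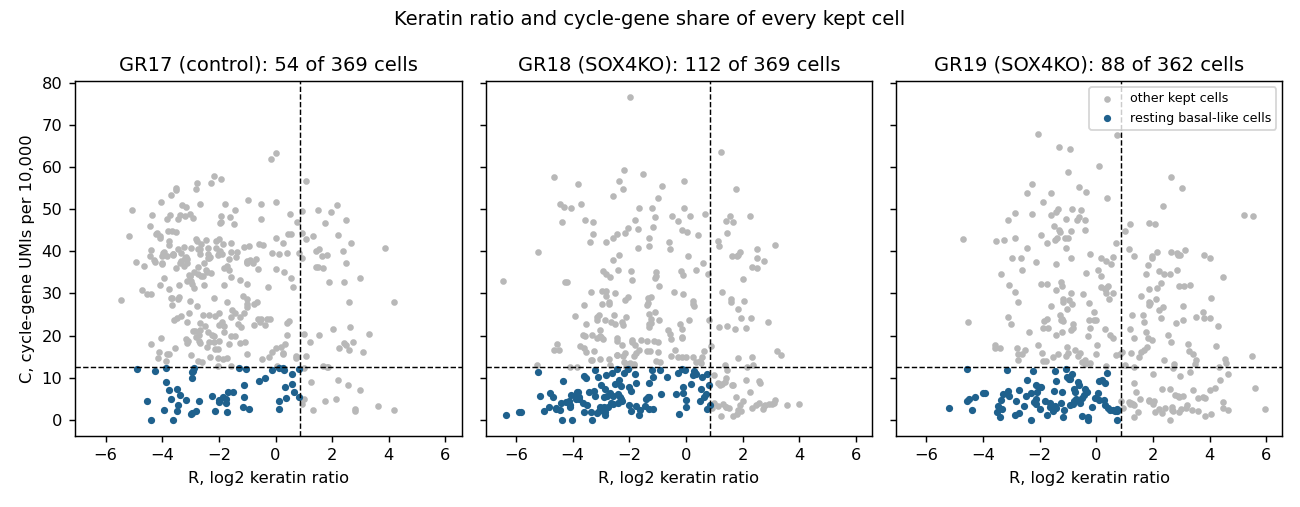
The log2 keratin ratio R (x axis) and the cycle-gene UMIs per 10000, C (y axis), are plotted for every kept cell, with 1 panel for each library and dashed lines at the thresholds. Resting basal-like cells are in blue, and they number 54 in the control library, 112 in GR18 and 88 in GR19.

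The resting cells were shallower than their cycling neighbors. The median was 13686 UMIs per resting basal-like cell in the control library, 15774 in GR18 and 16694 in GR19, against 20755, 21885 and 23348 in cycling basal-like cells of the same libraries. Summed over the members, the libraries held 743831, 1855416 and 1542590 UMIs. A gene with no UMI could thus have stood at up to 4.03, 1.62 and 1.94 CPM (3 counts), and the control library sets the lowest precision. Mitochondrial genes took 11.9%, 12.3% and 15.6% of the UMIs of the members, and the ribosomal RNA gene Rn45s took 5.99%, 3.65% and 7.31%. The part of depth or RNA quality in the results below was not tested.

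The name was checked against markers that the rule had not used. Trp63, which encodes p63, stood at 63.2 CPM in the control library, 116 in GR18 and 124 in GR19, and was found in 28 of 54, 77 of 112 and 70 of 88 resting basal-like cells. Krt15, a basal keratin, stood at 13.4, 39.3 and 26.6 CPM against 5.16, 6.66 and 3.41 CPM in all other cells of the same libraries. Sparc, a matrix-binding protein of basal cells, stood at 1160, 2430 and 1566 CPM against 532, 766 and 374 CPM. The contractile genes were absent or nearly so. Acta2 and Myh11 had no UMI in any library, Cnn1 reached 0.539 CPM in GR18 only, and Tagln reached 0.648 CPM in GR19 only. Oxtr, the oxytocin receptor of myoepithelial cells, stood at 1.34, 15.6 and 22.7 CPM. Trp63 was found in 0 of 15, 7 of 41 and 7 of 57 resting luminal-like cells. In cycling basal-like cells it was found in 154 of 257, 127 of 177 and 108 of 137. Krt5 and Krt14 belong to the rule and are no check of the name. Krt17, a basal keratin outside the rule, stood at 177, 2.16 and 0.648 CPM. Its log2 differences from all other cells (log2 of CPM plus 1) were 0.25, −0.97 and −0.67. It was thus lower in the members of both SOX4KO libraries and does not speak for the name there. Of 14 compared basal markers outside the rule, 12, 11 and 13 stood above all other cells in GR17, GR18 and GR19. Only 2 of the 14 were at least 2-fold higher in every library. The luminal keratin Krt8 stood at 683, 696 and 725 CPM in the members. The cells thus held p63 transcripts, with contractile genes at or near 0.

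Cells of other lineages were few. The leukocyte gene Ptprc was found in 1 member, of GR18, and the 10 immune markers summed to 0, 3.23 and 1.94 CPM. The 8 endothelial markers summed to 9.41, 4.31 and 3.89 CPM. The 11 fibroblast markers summed to 94.1 CPM in the control library, 53.9 in GR18 and 23.3 in GR19. Most of the sum in the control library was Col1a1, the type I collagen chain, with 38 UMIs in 6 of 54 cells, of which 1 cell held 30.

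The 5 genes proposed as markers of these cells did not mark them equally in every library. All were chosen with these values known, so the values are a description. Krt14 belongs to the rule and stood at 2226 CPM in the control library, 3145 in GR18 and 2161 in GR19, against 1518, 1215 and 758 CPM in all other cells. Postn, which encodes the matrix protein periostin, stood at 188, 104 and 63.5 CPM against 16.5, 7.47 and 5.33 CPM, so it was higher in the resting basal-like cells of every library. Its log2 differences were 3.43, 3.63 and 3.35 (log2 of CPM plus 1, as are all log2 differences between cells here). In the control library, however, the 140 Postn UMIs lay in 10 of 54 cells and 1 cell held 39 of them. In GR18 39 of 112 cells and in GR19 25 of 88 cells held a Postn UMI. After each cell was thinned to 5000 UMIs, 15.7%, 27.3% and 12.8% of resting basal-like cells held one, against 7.11%, 2.27% and 3.70% of cycling basal-like cells (18.5%, 34.8% and 28.4% against 18.3%, 10.7% and 13.1% without thinning).

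Ndrg1, a gene induced by hypoxia and in differentiation, stood at 73.9 CPM (55.7 to 96.2) in the control library, 229 (207 to 251) in GR18 and 176 (155 to 198) in GR19. All other cells of these libraries stood at 19.7, 37.2 and 52.1 CPM. Ndrg1 was found in 16 of 54, 62 of 112 and 47 of 88 members. It was thus higher in resting basal-like cells than in all other cells of each library, and higher again in the SOX4KO libraries. Against resting luminal-like cells its log2 difference was 2.58, 2.08 and 0.34. In GR19 30 of 57 resting luminal-like cells held an Ndrg1 UMI, so there it hardly set the 2 resting states apart.

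Il17b, a cytokine of the interleukin-17 family, and Igfbp3, which binds insulin-like growth factors, marked the cells against luminal-like cells more than against cycling basal-like cells. Il17b stood at 22.9 CPM (13.3 to 36.6), 96.5 (82.9 to 112) and 77.8 (64.5 to 93.0). Its log2 difference from resting luminal-like cells was 4.58, 4.40 and 2.91, and from cycling basal-like cells 0.53, 1.77 and 1.45. Igfbp3 stood at 33.6 CPM (21.8 to 49.6), 119 (103 to 135) and 106 (90.1 to 123). Its log2 difference from resting luminal-like cells was 2.84, 4.09 and 4.22, and from cycling basal-like cells 0.54, 1.28 and 0.65. In the control library neither gene was 2-fold higher than in all other cells, with log2 differences of 0.81 for Il17b and 0.78 for Igfbp3.

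Next, the resting basal-like cells were set against all other cells within each library, with genes counted if they differed at least 2-fold in the same direction in all 3 libraries. The rule fixed this contrast, so it is described without a test. Of 6302 genes compared, 63 (1.0%) were higher and 162 (2.57%) were lower. The genes of the rule were left out of these counts. The median difference over all genes was −0.02, −0.03 and −0.04 on the log2 scale in GR17, GR18 and GR19. The lower genes were led by genes of cell division that the rule did not hold. Aurkb, a mitotic kinase, stood at 2.69, 2.69 and 3.24 CPM against 67.4, 47.0 and 42.0 CPM in all other cells. Of a list of 36 other cycle genes, 31 could be compared, and 28 were lower and 0 higher, with medians of −1.99, −2.07 and −1.99. Mki67, the proliferation marker, still stood at 55.1, 84.1 and 85.6 CPM in the members against 251, 264 and 308 CPM, so the cells of low C are not a set of cells without cycle transcripts.

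The genes highest in the resting basal-like cells after Postn belong to differentiation, transcription and the cell surface. Calml3, a calmodulin-like protein of stratified epithelia, stood at 52.4, 78.7 and 31.1 CPM, with log2 differences from all other cells of 2.52, 2.49 and 2.64. Ly6d, a surface protein of keratinocytes, stood at 672, 178 and 261 CPM, with log2 differences of 2.31, 1.79 and 2.19. In the control library Ly6d was above both SOX4KO libraries, and Calml3 stood between GR19 and GR18.

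Mxd4, which encodes a MAX partner that opposes MYC, stood at 20.2 CPM in the control library, 42.6 in GR18 and 45.4 in GR19. In cycling basal-like cells it stood at 3.38, 5.57 and 4.06 CPM, and its log2 difference from them was 2.27, 2.73 and 3.20. Against resting luminal-like cells the difference was −0.18, 0.79 and 0.66, so Mxd4 followed the resting state in both keratin classes more than the basal class. Trim29, a protein of basal epithelia, stood at 33.6, 79.2 and 47.3 CPM. It was higher than in cycling basal-like cells (1.83, 1.73 and 1.10) and much higher than in resting luminal-like cells (5.11, 3.28 and 3.84).

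Lrrc32, which anchors latent TGF-beta at the cell surface, stood at 37.6, 62.0 and 38.2 CPM, with log2 differences from all other cells of 2.52, 2.01 and 2.22. Lrp1, an endocytic receptor, stood at 32.3, 45.3 and 27.2 CPM, with differences of 2.27, 2.06 and 2.0. Abca1, a cholesterol exporter, stood at 40.3, 32.3 and 45.4 CPM, with differences of 2.42, 2.47 and 2.63. Lrrc32, Lrp1 and Abca1 were higher in the resting basal-like cells of every library by a like amount.

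**Figure D2:**
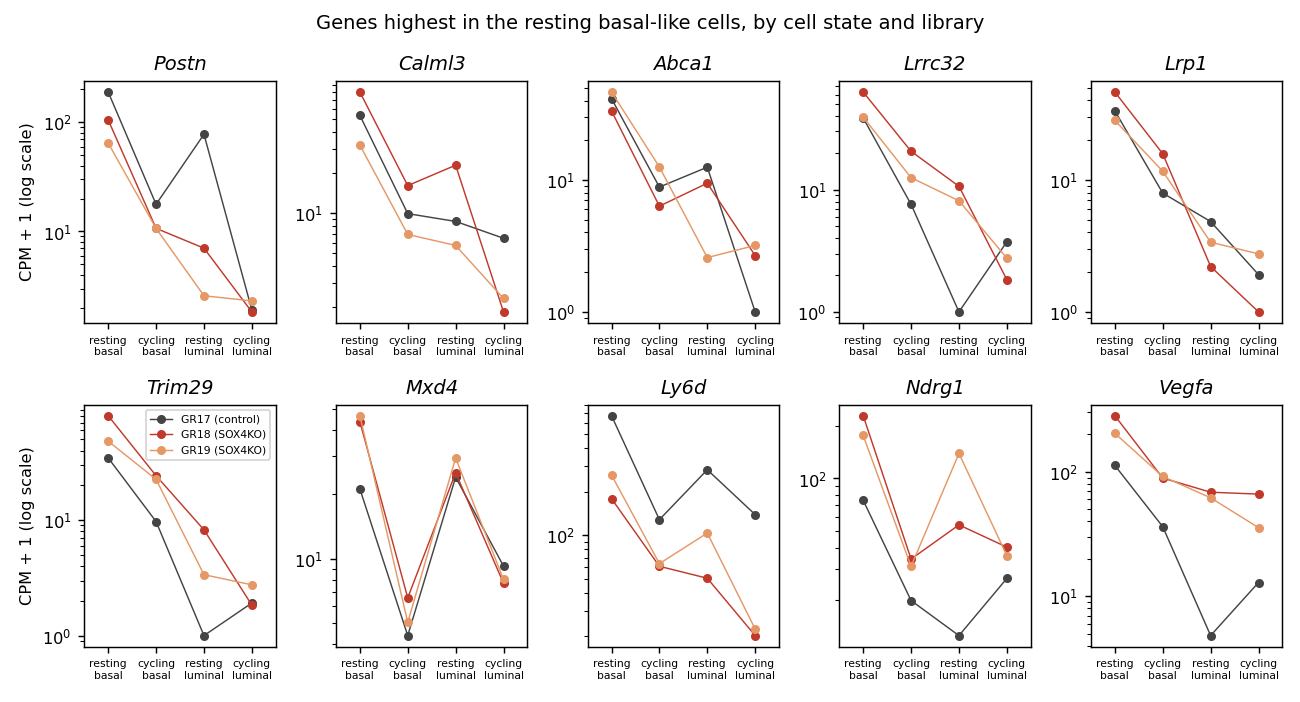
The summed level (CPM plus 1, log scale) of 10 genes is plotted for 4 cell states, with 1 line for each library. The first 8 genes are among the 10 with the largest difference of the resting basal-like cells from all other cells, and Postn, for one, stood at 188, 104 and 63.5 CPM in these cells.

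The same count was made against each of the 2 neighboring states. Against cycling basal-like cells 73 of 6321 genes (1.15%) were higher and 195 (3.08%) lower, and against resting luminal-like cells 116 of 6137 (1.89%) were higher and 74 (1.21%) lower. There were 13 genes higher against all other cells and against both neighbors, among them Abca1, Calml3, Car12, Ephb6, Lrrc32, Ly6d, Mir143hg, Nrep, Postn, Selm, Trim29 and Vegfa. Tcp11l2 led the genes higher than in cycling basal-like cells, at 28.2, 49.0 and 40.8 CPM in the members and with log2 differences of 2.99, 2.64 and 2.66.

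Against resting luminal-like cells the 10 leading genes were Sostdc1, Col7a1, Sparc, Col17a1, Trim29, Col8a1, Id4, Fam101a, Il17b and Igfbp3. Col17a1, the transmembrane collagen of hemidesmosomes, stood at 101, 129 and 106 CPM against 7.66, 12.1 and 6.32 CPM. Col7a1, which makes anchoring fibrils, stood at 53.8, 48.0 and 43.4 CPM against 3.83, 2.41 and 1.58 CPM. Sostdc1, an antagonist of BMP and Wnt signals, was above the resting luminal-like cells in each library but not at an equal level, with 198 CPM in the control library, 156 in GR18 and 12.3 in GR19. The luminal side was led by S100a8, an alarmin, at 310, 451 and 86.9 CPM in resting luminal-like cells against 0, 26.9 and 3.89 CPM in resting basal-like cells. The resting luminal-like cells of the control library numbered 15, so their values are the least precise of this comparison.

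Of the other lists compared with all other cells, squamous differentiation had 2 of 10 genes higher (Ly6d and Calml3), matrix genes 4 of 25 (Postn, Sparc, Col7a1 and Lama3) and basal markers outside the rule 2 of 14 (Sparc and Igfbp5), with 0 lower in each. Igfbp5, which binds insulin-like growth factors, stood at 1624, 3801 and 3788 CPM against 398, 1218 and 1448 CPM. Lama3, a laminin chain of hemidesmosomes, stood at 129, 183 and 195 CPM against 62.6, 89.9 and 73.4 CPM. Of 17 luminal markers 0 were higher and Csn3 was lower. With 1.0% of all compared genes higher and 2.57% lower, lists of this size could well hold none, and no gene was past 2-fold among 6 integrins, 18 genes of the TGF-beta and BMP list, 12 cytokines, 17 immediate early and stress genes or 7 genes of the Wnt list.

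Growth arrest was described with a list of 27 CDK inhibitors, D cyclins and arrest genes, of which 19 could be compared with all other cells. Ccng2, a cyclin of cells that leave the cycle, was the 1 gene at least 2-fold higher, at 44.4, 65.8 and 48.0 CPM against 14.2, 24.4 and 22.9 CPM, and 0 genes were lower. The CDK inhibitor Cdkn1a stood at 300 CPM in the control library, 230 in GR18 and 174 in GR19 against 273, 227 and 166 CPM in all other cells. Cdkn1b stood at 55.1, 58.2 and 51.2 CPM against 53.8, 53.3 and 45.6 CPM, and Cdkn1c had no UMI. The list medians were 0.47, 0.04 and 0.16 on the log2 scale.

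The main comparison of the study, SOX4KO against control, was then made within the resting basal-like cells. The 2 SOX4KO libraries share the 1 control library, and their differences are given side by side. Of 6222 genes compared, 173 (2.78%) were at least 2-fold higher and 82 (1.32%) at least 2-fold lower in both SOX4KO libraries. Singly, GR18 had 309 higher (4.97%) and 145 lower (2.33%), and GR19 had 259 higher (4.16%) and 205 lower (3.29%). The median difference over all genes was 0.01 for GR18 and −0.05 for GR19. In cycling basal-like cells 80 of 6299 genes (1.27%) were higher and 17 (0.270%) lower by the same count. These counts keep genes by their mean CPM over the library sums, of which 2 are SOX4KO and 1 is control. A gene absent from the control library thus passes at a lower level than a gene absent from both SOX4KO libraries. The numbers of higher and lower genes therefore cannot be ranked against each other. The control sum held 743831 UMIs in resting and 5617000 in cycling basal-like cells. Counting error is thus larger in the resting cells, and the numbers of genes in the 2 states cannot be ranked. Of the 173 genes, 76 were also higher in cycling basal-like cells, and 30 differed less than 1.5-fold there in both libraries. Of the 82 genes, 22 were also lower there. No gene was past 2-fold in opposite directions in the 2 states.

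Tfap2b, a transcription factor of the AP-2 family, had no UMI in the 54 control cells and stood at 66.8 CPM in GR18 and 70.0 in GR19. Taking 3 counts as the floor of the control library, it was at least 16.6-fold higher in GR18 and at least 17.4-fold higher in GR19. It was found in 61 of 112 and 55 of 88 resting basal-like cells. Cycling basal-like cells stood alike, at 0, 63.9 and 78.6 CPM. Clca2, a p53-induced membrane protein of basal cells, stood at 0, 43.7 and 115 CPM and was at least 10.8-fold and 28.6-fold higher. Folds given as at least, here and below, leave out counting error in the SOX4KO values. Matn2, a matrix protein of the matrilin family, had 1 control UMI (1.34 CPM) and stood at 58.2 and 33.1 CPM, with ratios to the control of 43.3 (counting interval 7.61 to 1726) and 24.6 (4.22 to 990).

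Csn1s1 and Csn3 encode milk proteins. Csn1s1, an alpha casein, stood at 8.07 CPM in the control library, 342 in GR18 and 449 in GR19, ratios of 42.4 (19.4 to 116) and 55.6 (25.4 to 152). Csn3, the kappa casein, stood at 13.4, 210 and 390 CPM, ratios of 15.6 (8.41 to 32.9) and 29.0 (15.6 to 60.7). Resting luminal-like cells stood higher, at 107, 2027 and 1114 CPM of Csn1s1 and at 713, 1208 and 4213 CPM of Csn3. In the resting basal-like cells Csn1s1 was found in 5 of 54, 74 of 112 and 61 of 88 cells. The casein UMIs were uneven between these cells. In GR18 5 cells held 40.2% of the Csn1s1 UMIs and 5 cells held 55.4% of the Csn3 UMIs. In GR19 the shares were 42.5% and 38.9%. Car2, a carbonic anhydrase, had 2 control UMIs (2.69 CPM) and stood at 79.8 and 86.2 CPM, ratios of 29.7 (8.07 to 247) and 32.1 (8.70 to 268).

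The other 4 of the 10 largest differences upward were Ifit1, Ifi27l2a, Isg15 and Oasl2, each known to be induced by interferon. They were set together after their values were seen and are no list of the design. Ifit1 had no UMI in the control cells and stood at 93.2 CPM in GR18 and 48.0 in GR19, at least 23.1-fold and 11.9-fold higher. Ifi27l2a stood at 0, 124 and 53.8 CPM, at least 30.9-fold and 13.3-fold higher. Isg15, a ubiquitin-like protein, had 4 control UMIs (5.38 CPM) and stood at 170 and 122 CPM, ratios of 31.6 (12.2 to 117) and 22.7 (8.71 to 84.0). Oasl2 had 3 control UMIs (4.03 CPM) and stood at 132 and 110 CPM, ratios of 32.6 (11.0 to 159) and 27.3 (9.19 to 134). The Ifit1 UMIs were uneven between cells, with 53.2% of those in GR18 and 43.2% of those in GR19 in 5 cells. In cycling basal-like cells Ifit1 stood at 0.890, 25.2 and 21.2 CPM, so the libraries differed in the same direction there.

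The promoters of Ifit1 and Isg15 are shown because interferon-induced genes commonly carry a repeated GAAA element there. The motif was chosen after the values were seen. It was GAAANNGAAA on both strands, in the 250 bases before each start in the RefSeq promoter table of GRCm38.p6. Of the 173 genes 131 matched the table, with 181 promoters, and 14 of these promoters (7.73%), of 13 genes, held the motif. The table as a whole held it in 978 of 32851 promoters (2.98%), and the promoters of the 82 lower genes in 2 of 69 (2.90%). Of the 10 genes with the largest differences upward 6 were in the table, and of these Ifit1 and Isg15 held the motif. The promoter of Ifit1 is at chr19:34640639-34640888 on the + strand and that of Isg15 at chr4:156200819-156201068 on the − strand, in the GRCm38.p6 build. Capitals mark the matches, which in Isg15 overlap, and a match is not a tested binding site.
Ifit1: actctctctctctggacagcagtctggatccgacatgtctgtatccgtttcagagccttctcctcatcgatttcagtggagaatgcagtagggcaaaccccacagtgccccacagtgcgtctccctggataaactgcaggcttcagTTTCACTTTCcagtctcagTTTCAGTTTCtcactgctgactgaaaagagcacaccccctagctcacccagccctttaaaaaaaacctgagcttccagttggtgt
Isg15: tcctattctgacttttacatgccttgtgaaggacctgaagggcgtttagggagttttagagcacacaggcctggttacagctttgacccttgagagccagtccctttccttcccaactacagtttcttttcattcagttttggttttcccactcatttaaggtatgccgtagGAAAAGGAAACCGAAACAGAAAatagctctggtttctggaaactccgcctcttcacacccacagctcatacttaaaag

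The largest difference downward was that of Krt17, a keratin of basal and stressed epithelia. It stood at 177 CPM (148 to 210) in the control library, 2.16 (0.587 to 5.52) in GR18 and 0.648 (0.0164 to 3.61) in GR19. It was found in 29 of 54 control cells, in 4 of 112 cells of GR18 and in 1 of 88 cells of GR19. Cycling basal-like cells stood at 177, 7.51 and 3.43 CPM, so the libraries differed alike there. With 4 and 1 UMIs in the SOX4KO libraries, the control stood above them by ratios of 82.3 (31.4 to 307) and 274 (48.3 to 10893). The keratins of the rule differed by less, Krt14 by 0.50 and −0.04 and Krt5 by 0.14 and −0.98 on the log2 scale in GR18 and GR19.

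The other differences downward were smaller. Ctxn1, a small membrane protein, stood at 60.5 CPM in the control library, 5.93 in GR18 and 7.78 in GR19. Tuba1a, an alpha tubulin, stood at 133, 23.7 and 20.7 CPM, and Aldh3a1, an aldehyde dehydrogenase, at 92.8, 18.9 and 15.6 CPM. Etv4, an ETS transcription factor downstream of FGF signals, stood at 83.4, 16.7 and 13.6 CPM. Col1a1 stood at 51.1, 7.01 and 2.59 CPM, and its control value rests on the 1 cell described above. Lbh (−2.63 and −2.13), Ttyh3 (−2.57 and −2.11) and Sbk1 (−2.15 and −1.99) were lower too, on the log2 scale in GR18 and GR19.

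Csf3, the granulocyte colony-stimulating factor, was lower in resting basal-like cells and differed little in cycling basal-like cells. In the resting basal-like cells it stood at 69.9 CPM (52 UMIs) in the control library, 17.2 in GR18 and 7.13 in GR19, log2 differences of −1.96 and −3.12. Cycling basal-like cells stood at 66.0, 62.0 and 55.8 CPM, differences of −0.09 and −0.24, and resting luminal-like cells at 123, 95.4 and 113 CPM. Etv4 was likewise closer between the libraries in cycling basal-like cells, at 65.9, 47.7 and 29.6 CPM. With 1 control library the difference between the states was not tested.

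**Figure D3:**
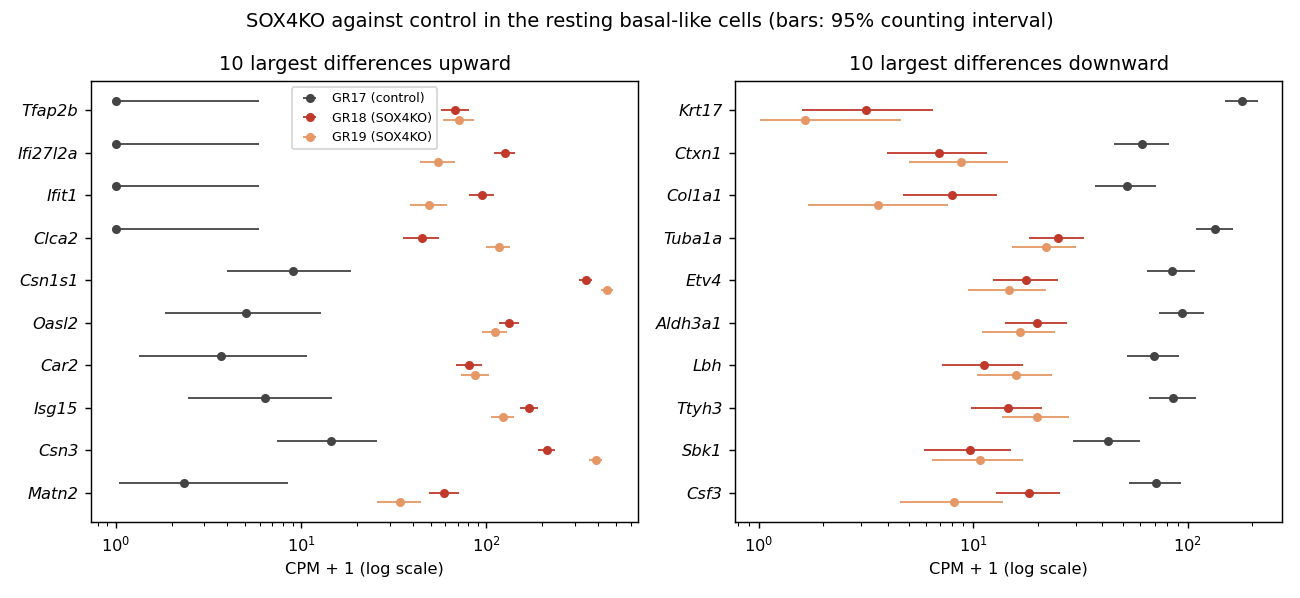
The level (CPM plus 1, log scale) in the resting basal-like cells of each library is plotted for the 10 genes with the largest differences upward (left) and the 10 with the largest downward (right), with 95% counting intervals as bars. The control library (gray) is lowest for every gene at the left, at 0 CPM for Tfap2b, Ifi27l2a, Ifit1 and Clca2, and highest for every gene at the right.

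Hypoxia and glycolysis genes were the list with the most members past 2-fold in the resting basal-like cells. Of 40 genes, 32 could be compared, and 8 were at least 2-fold higher in both SOX4KO libraries and 0 lower, where 2.78% of all compared genes were higher and 1.32% lower, with list medians of 1.13 in GR18 and 0.61 in GR19 against 0.01 and −0.05 over all genes. The 8 genes include Ndrg1 and Igfbp3, which were chosen with these values known. Bnip3, a mitophagy receptor, stood at 90.1 CPM in the control library, 570 in GR18 and 342 in GR19. Car9, a carbonic anhydrase that is a classic target of the hypoxia-inducible factor, stood at 52.4, 245 and 218 CPM, and Car12, its relative, at 386, 980 and 885 CPM. Aldoc stood at 161, 544 and 342 CPM, Bnip3l at 102, 281 and 241 CPM, and Ero1l at 48.4, 168 and 123 CPM.

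Most of the list stood higher in both SOX4KO libraries, with exceptions. Differences were above 0 for 30 genes in GR18 and 27 in GR19. The kinase Pgk1 stood at 1132, 2698 and 2141 CPM, and lactate dehydrogenase Ldha at 1991, 4192 and 3275 CPM, but Pkm stood at 5821, 5658 and 4124 CPM. The oxygen sensor Egln3 stood at 157, 144 and 143 CPM. In cycling basal-like cells the list medians were 0.87 and 0.62 with 6 genes higher.

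Within each library the same list was somewhat higher in resting basal-like cells than in all other cells, with medians of 0.32 in the control library, 0.52 in GR18 and 0.42 in GR19. Vegfa, the endothelial growth factor, stood at 112, 281 and 203 CPM against 30.4, 80.9 and 66.2 CPM. Pfkfb3, an activator of glycolysis, stood at 28.2, 49.6 and 27.9 CPM against 4.88, 14.8 and 9.62 CPM. These genes, with Ndrg1, Car12 and Bnip3, were the 5 of the list that were at least 2-fold higher in all 3 libraries. There were 7 genes that were both higher in the SOX4KO libraries and higher than in all other cells, namely Bnip3, Car12, Gys1, Igfbp5, Mir143hg, Mxd4 and Ndrg1. Ly6d alone was lower in the SOX4KO libraries and higher than in all other cells.

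**Figure D4:**
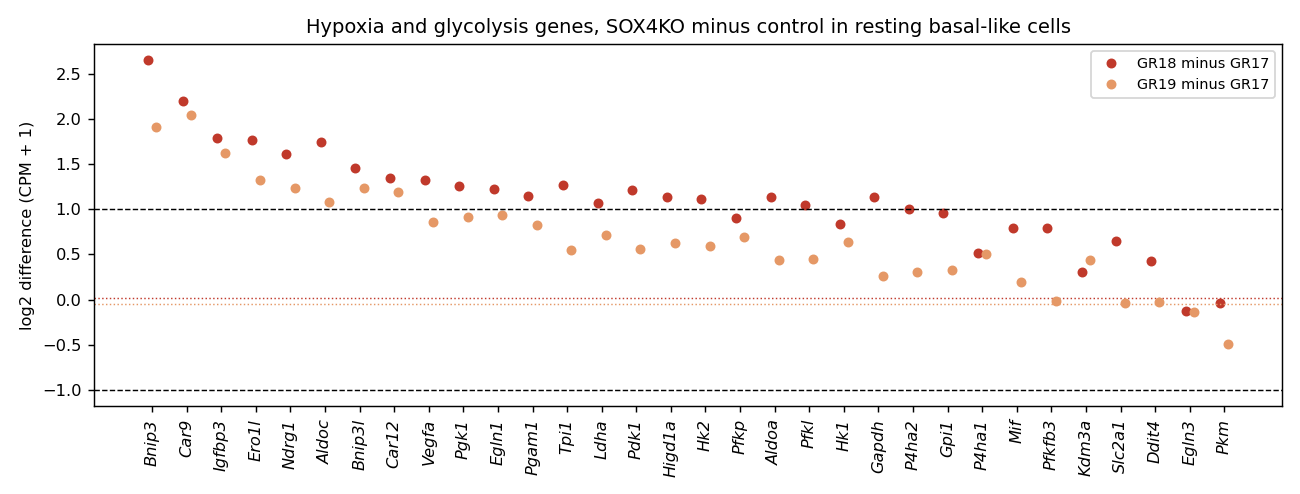
The log2 difference between each SOX4KO library and the control library in the resting basal-like cells (log2 of CPM plus 1) is plotted for the 32 compared hypoxia and glycolysis genes, with dashed lines at 2-fold and dotted lines at the medians of all genes. Differences were above 0 for 30 genes in GR18 and 27 in GR19.

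The other lists are read against the 2.78% of all compared genes that were higher and the 1.32% that were lower. Of 27 compared matrix genes, Ctgf, Col8a1, Col16a1 and Matn2 were higher and Col6a1 and Lgals1 lower in both SOX4KO libraries, with list medians of 0.11 and 0.08. Col16a1, a collagen of the basement membrane zone, stood at 68.6, 206 and 145 CPM, and Ctgf, a matricellular growth factor, at 48.4, 143 and 196 CPM. Of 14 compared basal markers, Igfbp5 was higher, at 1624, 3801 and 3788 CPM, and Krt17 lower. Of 15 compared luminal markers, Csn3 was higher and Prom1 and Foxa1 lower. Foxa1, a pioneer factor of luminal cells, stood at 187, 56.6 and 64.2 CPM.

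Among the signaling lists, Inhba, a subunit of activin, stood at 253, 101 and 102 CPM and its antagonist Fst at 140, 43.1 and 55.8 CPM. They were the 2 genes lower and 0 were higher of 16 compared in the TGF-beta and BMP list. Nkd2, an inhibitor of Wnt signals, stood at 251, 81.9 and 55.1 CPM and was the 1 gene lower of 7 compared in the Wnt list. Atf3, a stress-induced transcription factor, stood at 64.5, 11.3 and 25.3 CPM and was the 1 gene lower of 16 immediate early and stress genes. Of 20 arrest genes, Gadd45a and Trp53inp1 were lower and Rb1, the retinoblastoma protein, was higher, at 24.2, 60.4 and 59.6 CPM. Il17b and Csf3 were the 2 cytokines past 2-fold, in opposite directions. No gene passed among the 6 of 13 integrins or the 7 of 21 genes of epithelial-mesenchymal transition that could be compared. With 2.78% of all compared genes higher and 1.32% lower, lists of this size could well hold none.

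The 2 SOX4KO libraries also differed from each other. GR19 was at least 2-fold higher than GR18 for 49 of 6222 genes (0.788%) and lower for 67 (1.08%) in the resting basal-like cells. Sostdc1 stood at 156 CPM in GR18 and 12.3 in GR19, with the control library at 198 CPM, so that GR18 and the control stood together. Bcl11b, a transcription factor of basal mammary cells, stood at 41.7 CPM in the control library, 2.69 in GR18 and 16.9 in GR19. Its relative Bcl11a stood at 28.2, 39.9 and 11.0 CPM. Ldhb, a lactate dehydrogenase subunit, stood at 41.7, 19.9 and 3.24 CPM. These 4 genes have no single SOX4KO level, though Bcl11b and Ldhb were at least 2-fold below the control library in both. In bulk Bcl11b was called lower (−3.20 on the log2 scale, edgeR, adjusted p = 0.0125), and it lost the call without WT1.

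Bulk RNA of the 5 lines gave the only test, on libraries that the rule did not use. Bulk RNA mixes all cell states, and fewer cells of a type and less RNA per cell cannot be told apart in it. The p-values measure the spread between lines, and SE is the standard error. Of 11682 genes tested, 479 (4.10%) were called higher and 254 (2.17%) lower in SOX4KO lines at an adjusted p under 0.1. Of the 173 genes higher in resting basal-like cells, 157 were tested in bulk, and 36 were called higher and 1 lower. The 36 are 22.9% of the tested members and 7.52% of all bulk genes called higher. Of the 82 lower genes 75 were tested, and 11 (14.7%, and 4.33% of all called lower) were called lower and 2 higher. The bulk medians were 0.28 and −0.36 on the log2 scale for the higher and lower genes, against 0.01 for all genes. The calls rest on the control lines. Without WT1 or WT3 the fit keeps 1 control line, and most calls were then lost, over all genes as among these members. With each line left out in turn, Csn1s1, Pgf, Plekhb1, Serpinf1 and Tfap2b stayed called higher and Prom1 and Ttyh3 lower.

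Tfap2b had no count in WT1 or WT3 and stood at 36.5, 33.8 and 35.4 CPM in H7, M4 and H4. Against a floor of 3 counts per library this is a difference of at least 43.7-fold (edgeR, adjusted p = 0.00118). Csn1s1 stood at 1.81 and 0.996 CPM in the control lines and at 44.9, 22.7 and 34.7 in the SOX4KO lines, which is 4.62 on the log2 scale (SE 0.45, adjusted p = 0.00657). Pgf, the placental growth factor, stood at 87.4, 223 and 214 CPM in the resting basal-like cells and had a bulk log2 fold change of 2.37 (adjusted p = 0.00671). Ttyh3, a membrane protein of the tweety family, stood at 72.0 and 63.9 CPM against 24.8, 18.7 and 25.4, and fell by 1.55 (SE 0.20, adjusted p = 0.0125). The groups did not overlap for Tfap2b, Csn1s1 or Ttyh3.

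Other calls depended on a line. Matn2 stood at 15.8 and 7.17 CPM in the control lines and at 144, 155 and 61.1 in the SOX4KO lines (3.4 on the log2 scale, SE 0.50, adjusted p = 0.0158). Ctxn1 stood at 12.2 and 20.3 CPM against 0.522, 1.44 and 1.92, and fell by 3.62 (SE 0.48, adjusted p = 0.0131). Sbk1 stood at 53.3 and 90.8 CPM against 23.7, 26.6 and 29.5, and fell by 1.44 (adjusted p = 0.0282). Matn2 (2.92), Ctxn1 (−3.20) and Sbk1 (−1.0) each lost the call without WT3. Col1a1 stood at 219 and 97.6 CPM against 48.3, 71.3 and 61.3, fell by 1.39 (adjusted p = 0.0624), and lost the call without WT1 (−0.70) or without H7 (−1.26).

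Of the 5 proposed markers Igfbp3 alone was called in bulk. It stood at 122 and 40.8 CPM in the control lines and at 308, 663 and 199 in the SOX4KO lines, 2.26 higher on the log2 scale (SE 0.60, adjusted p = 0.0892). It lost the call without WT1 (3.25), WT3 (1.67), H7 (2.4) or M4 (1.64). Ndrg1 stood at 159 and 66.5 CPM against 229, 193 and 164, all SOX4KO lines above the control lines, and was not called (0.79, SE 0.34, adjusted p = 0.274). Krt14 (0.33, adjusted p = 0.834), Postn (0.25, adjusted p = 0.859) and Il17b (0.09, adjusted p = 0.917) overlapped between the groups. Postn stood at 4337, 1667, 4444, 4786 and 1500 CPM in WT1, WT3, H7, M4 and H4, so the lines of each group spanned the same range.

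The hypoxia and glycolysis list had 36 genes tested in bulk, of which 6 were called higher and 0 lower, where 4.10% of all tested genes were called higher and 2.17% lower. The list median was 0.33, and 33 values were above 0. Bnip3 stood at 42.5 and 43.2 CPM in the control lines and at 98.6, 90.0 and 72.3 in the SOX4KO lines (1.02, SE 0.19, adjusted p = 0.0361). Car12 stood at 380 and 238 CPM against 782, 603 and 704 (1.17, adjusted p = 0.0486), and Car9 at 14.8 and 18.1 CPM against 25.8, 32.4 and 33.5 (0.89, adjusted p = 0.0785). Ddit4 (0.69, adjusted p = 0.0765), Pfkp (1.03, adjusted p = 0.0417) and Igfbp3 were the others. Each of these calls was lost without WT1 and without WT3, Car9 also without H4 and Ddit4 without H7.

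Several genes that were high in the resting basal-like cells within every library were called higher in SOX4KO lines in bulk. Of the 63 such genes 57 were tested, and 16 (28.1%, and 3.34% of all called higher) were called higher, with 1 of 57 lower. Over all tested genes 4.10% were called higher and 2.17% lower. Trim29 stood at 14 and 14.7 CPM in the control lines and at 54.5, 126 and 59.9 in the SOX4KO lines (2.47, SE 0.40, adjusted p = 0.0228). Lrp1 (1.36, adjusted p = 0.0418), Lrrc32 (1.30, adjusted p = 0.0361), Sparc (1.82, adjusted p = 0.0891) and Mxd4 (0.71, adjusted p = 0.0805) were also called, and Ccng2 was called lower (−1.05, adjusted p = 0.032). Of the 162 genes low in these cells, 151 were tested, and 17 (11.3%) were called lower and 2 higher. Kif11, a mitotic motor, stood at 51.8 and 39.4 CPM against 20.1, 23.4 and 16.3 (−1.20, adjusted p = 0.0353). The calls among the 162 low genes, Kif11 included, were lost without WT1 and without WT3. Most calls among the 63 high genes and over all genes were lost too.

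Ifit1, Isg15, Oasl2 and Ifi27l2a, higher in the SOX4KO cells, were not higher in the SOX4KO lines in bulk. Ifit1 stood at 335 and 228 CPM in the control lines and at 290, 49.0 and 71.1 in H7, M4 and H4 (log2 fold change −1.04, adjusted p = 0.45). Isg15 stood at 347 and 200 CPM against 204, 61.9 and 71.4 (−1.27, adjusted p = 0.217), and Oasl2 at 510 and 379 CPM against 479, 72.0 and 132 (−0.96, adjusted p = 0.494). Ifi27l2a stood at 745 and 709 CPM against 591, 220 and 131 (−1.21, adjusted p = 0.27). None was called with all lines. Without H7, whose levels of Ifit1, Isg15 and Oasl2 stood between WT3 and WT1, all 4 were called lower, with log2 fold changes of −2.22, −2.04, −2.12 and −2.06. Control lines thus expressed these genes in bulk, while the control plate held 0 UMIs of Ifit1 in 54 resting basal-like cells. The labels do not tie the plate to a line, so plate, line and culture cannot be told apart here.

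Other genes differed in direction too. Of the 157 tested genes higher in the cells, 63 had bulk SOX4KO lines all above the control lines and 17 all below. Of the 75 lower genes 35 had them all below and 3 all above. Over all tested genes 19.0% had them above and 17.9% below. The calls against the direction of the cells were Etv4 and Epas1, called higher, and Map3k1, called lower.

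Etv4 stood at 18.9 and 24.5 CPM in the control lines and at 36.0, 36.4 and 38.6 in the SOX4KO lines (0.76, SE 0.20, adjusted p = 0.0892), while in the resting basal-like cells it stood lower in both SOX4KO libraries. The bulk call was lost without any of WT1, WT3, H7 and H4. Epas1, which encodes a hypoxia-inducible factor, stood at 138, 67.9 and 66.1 CPM in the resting basal-like cells and was 1.16 higher on the log2 scale in bulk (adjusted p = 0.0501). Map3k1, a kinase of the JNK pathway, stood at 14.8, 45.3 and 53.2 CPM in the cells and at −0.95 in bulk (adjusted p = 0.0626), and both lost the call without WT1 and without WT3. Csf3 (1.31, adjusted p = 0.249) and Aldh3a1 (0.87, adjusted p = 0.596), lower in the cells, had positive bulk values with overlapping lines. Krt17, the largest difference downward in the cells, stood at 11.6 and 7.97 CPM in the control lines and at 8.09, 5.76 and 0.239 in the SOX4KO lines and was not called (−1.08, adjusted p = 0.536). In bulk it was thus low in every line. Csn3 stood at 337 and 271 CPM against 741, 165 and 2287, with M4 below and the others above the control lines (1.81, adjusted p = 0.32).

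**Figure D5:**
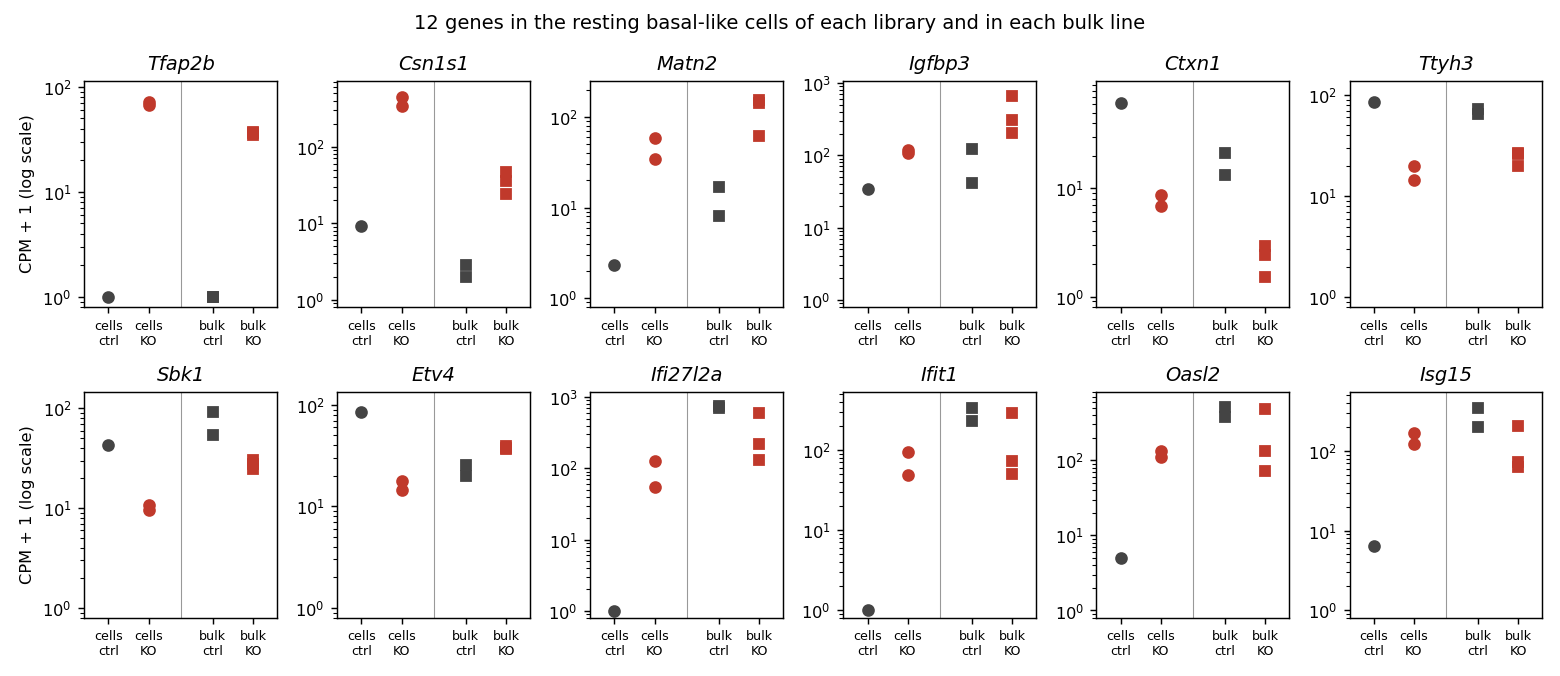
For 12 genes, the level (CPM plus 1, log scale) in the resting basal-like cells of each library (circles) and in each bulk line (squares) is plotted, control in gray and SOX4KO in red. Tfap2b, Csn1s1 and Ttyh3 differed in the same direction in both, while Ifi27l2a and Etv4 differed in opposite directions, with bulk log2 fold changes of −1.21 and 0.76 (the first not called).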

How the data were processed

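Single cells of 3 plates of 384 wells and bulk RNA of 5 organoid lines were analysed. Per the labels the authors aligned reads with STAR 2.4.2a to NCBIM37 or mm9, and they deposited unnormalized counts, as UMIs per gene and well for the cells (the unit follows from the study's method) and as htseq-count reads per gene for bulk. The well barcodes are the same in each plate by design.

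Wells with at least 1000 non-ERCC UMIs were kept, 1100 of 1152, and the rule was applied to the 3 plates pooled. UMIs of the cells of a state were summed per library and divided into CPM. Genes with a mean of at least 20 CPM over the sums were compared as log2 of CPM plus 1. Cells are not replicates, so no test was made. Intervals are exact Poisson, exact binomial or conditional exact for ratios, at 95%, and a count of 0 was taken as up to 3 counts. No doublet caller was run. Wells over 2 times the median UMIs were left out as an alternative.

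In bulk, reads on genes were 3050323 to 4678497 per line, after the rows that name no gene, 71.6 to 83.9% of the table, were left out. Of 38293 gene IDs 36345 had a symbol. edgeR 4.0.16 (filterByExpr, TMM, glmQLFit, glmQLFTest; R 4.3.3, limma 3.58.1) was fitted over all genes without covariates and p-values were adjusted by Benjamini-Hochberg, with calls under 0.1. The standard error is the absolute log2 fold change divided by the square root of F. Alternatives were DESeq2 1.42.0, its size factors, all genes with a count, other UMI and CPM minimums and pseudocounts, thinning to 5000 UMIs, other thresholds of the rule and leaving out each library or line. Python 3.11.15 with numpy 2.4.6, pandas 2.3.3 and scipy 1.17.1 was used, and the scripts were tested on simulated data.

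Named genes are the 5 proposed markers, the genes of the rule, the 10 largest differences in each direction between SOX4KO and control, the 10 highest and 5 lowest genes against each other group of cells, the 5 largest in each direction between the SOX4KO libraries and between the states, and members of the gene lists. Ephb6, Epas1, Gys1, Map3k1, Mir143hg, Nrep, Pgf, Plekhb1 and Selm fall outside this rule and were named after their values were seen, and Sox4 is the targeted gene. Some genes that the rule selects are not reported here. The members and lists were chosen with earlier results of these data known.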

Additional observations from a re-analysis of the deposited data

Results flagged for a closer look

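Etv4 and Ifi27l2a differed between SOX4KO and control in opposite directions in single cells and in bulk. Etv4 was lower in the resting basal-like cells of both SOX4KO libraries and higher in all 3 bulk SOX4KO lines, with a bulk log2 fold change of 0.76. Ifi27l2a was higher in the cells of both SOX4KO libraries and lower in all 3 lines, with a bulk log2 fold change of −1.21 that was not called by edgeR. The difference between cells and bulk was not tested.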

How the results depend on the processing

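The numbers of genes past 2-fold depended on the filter and the pseudocount. The 173 genes higher in both SOX4KO libraries became 99 with a pseudocount of 10 CPM, 74 with a minimum of 50 CPM, 807 with no minimum beyond 1 UMI and 277 with cells thinned to 5000 UMIs, and 231 to 293 with a SOX4KO library left out. The 82 lower genes became 44, 23, 654 and 140 in the same order, 203 with the thresholds taken within each library (against 232 higher), and 155 to 219 with a library left out. The 63 genes higher than in all other cells became 33, 24 and 134 with the pseudocount of 10, the minimum of 50 and no minimum, and 75 to 109 with a library left out. The 162 lower genes became 66 with the minimum of 50 CPM and 328 with none. Thresholds within each library gave 78, 82 and 87 members in GR17, GR18 and GR19, of which 42, 82 and 73 were among the members described. This setting makes the shares nearly equal by construction and cannot speak to their difference. Thinning gave 56, 127 and 91. In bulk the 479 and 254 calls became 1008 and 678 with all genes with at least 1 count, and 30 to 624 and 26 to 382 with a line left out. The lowest were without WT3, and without WT1 there were 93 and 37. With a line left out, the bulk log2 fold changes of Il17b ran from −0.11 (without M4; −0.09 without WT1) to 0.33, of Krt14 from −0.69 (without M4) to 0.73, and of Postn from −0.28 (without WT3; −0.02 without M4) to 1.10, none of them called. For Kif22, the SOX4KO minus control difference in resting less that in cycling basal-like cells turned from negative to positive with thinned cells (1.06). The cause was not tested. No paired analysis was possible because the groups share no replicate numbers that tie lines or libraries.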
